A study of Mus musculus with 48 samples.

Results

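The effect of ischemic stroke on gene expression was compared between endothelial cells (EC) and pericytes (PC) sorted from the same mouse brains. For each gene and each of 6 replicates, the log2 level in the contralateral hemisphere was subtracted from that in the ipsilateral hemisphere, which gave 6 endothelial and 6 pericyte differences, and these were compared with each other. All 12269 genes of the 24973 in the deposited table that had a mean of at least 10 normalized counts in both cell types were included. Just inside this limit were *Ammecr1* and *Cabyr*, with a pericyte mean of 10, and just outside it *Arhgef37* and *Bean1*, with 9.917. The comparison used 24 of the 48 libraries of the series. It addresses whether the EC and PC fractions, as sorted, respond alike at 24 h after stroke onset.

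All mice were male wild-type C57BL/6 animals of 12 to 15 weeks. A filament occluded the right middle cerebral artery for 60 min and was then withdrawn for 23 h of reperfusion (transient middle cerebral artery occlusion, tMCAO), and only surviving animals with a neurological severity score of at least 8 were used. Each replicate was a pool of 3 to 4 mice, and contralateral hemispheres of the same mice served as controls, so no library came from an animal without stroke. EC were gated as negative for CD45, ACSA2, NG2 and PDGFRβ and positive for VE-cadherin, and PC as negative for CD45, ACSA2 and VE-cadherin and positive for NG2 and PDGFRβ. The NG2 and PDGFRβ gate does not separate PC from other mural cells such as arterial smooth muscle cells, and PC here means the gated fraction. In contralateral PC, 7 smooth muscle markers summed to 319214 to 497819 normalized counts and 12 pericyte markers to 60647 to 210443.

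EC line the brain capillaries and form the blood–brain barrier (BBB) through tight junctions, low vesicular transport and selective transporters. PC lie outside the endothelium within a shared basement membrane, exchange PDGF, TGF-β and angiopoietin signals with it, and maintain the barrier and capillary tone. In ischemia both take part in barrier breakdown, in the recruitment of leukocytes and in the remodelling of the vessel wall.

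Libraries summed to between 10549900 and 15633875 normalized counts, which the spacing of low values places at 8600000 to 16600000 reads on genes with a median of 11700000. A floor of 3 reads corresponded to at most 4 normalized counts, for counting error only. Sample titles and column names gave opposite cell types for the 6 ipsilateral pericyte libraries, and the column names were used. With them, 10 of 10 endothelial markers and 7 of 12 pericyte markers had their lowest library of the own cell type above the highest library of the other 3 cell types, among them *Cldn5* and *Cdh5* for EC and *Pdgfrb*, *Des* and *Cspg4* for PC, while *Kcnj8*, *Abcc9*, *Anpep*, *Vtn* and *Higd1b* did not separate. Of these, *Anpep* was below the limit on low values and was not tested. *Kcnj8* was at 3 to 348 normalized counts in PC and up to 1378 in the other cell types, and *Abcc9* at 0 to 148 and up to 793. The libraries of replicates 1 to 4 stood apart in their content of microglial RNA. The summed level of 10 microglial markers was 7448 to 51503 in ipsilateral EC and 14751 to 66398 in ipsilateral PC of replicates 1 to 4, against 1113 to 1147 and 694 to 911 in replicates 5 and 6. In PC the ipsilateral sum exceeded the contralateral one in 5 of 6 replicates, with a median log2 difference of 1.10, and in EC in 2 of 6, with a median of -0.05. Values for replicates 1 to 4 and for replicates 5 and 6 are given beside a result where they lay far apart. In bulk libraries, fewer cells of a type and less RNA per cell cannot be told apart.

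**Figure D1:**
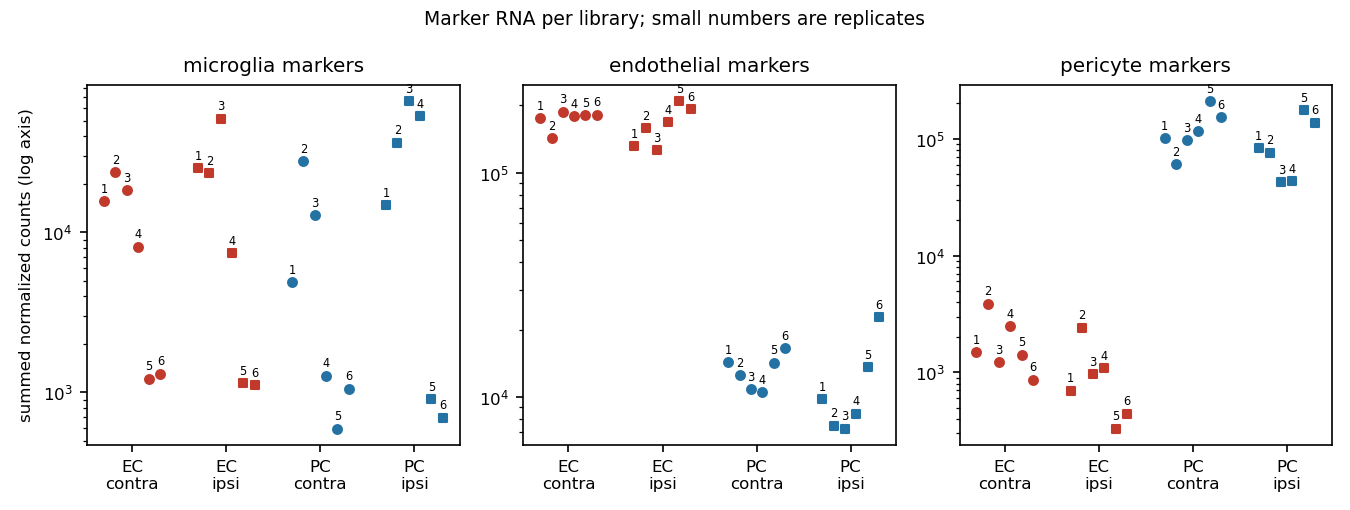
Summed normalized counts (log axis) of the microglia, endothelial and pericyte marker lists in each endothelial cell (EC) and pericyte (PC) library, contralateral (contra, circles) and ipsilateral (ipsi, squares), with the replicate number above each point. Microglial marker RNA was lowest in replicates 5 and 6 of every group and highest, at 66398, in ipsilateral PC of replicate 3, and pericyte marker RNA in EC was lower in the ipsilateral library of each replicate.

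The stroke effect differed between EC and PC for 8 genes, or 0.0652% of those tested (limma adjusted p of at most 0.05 and at least 1.5-fold). *Map1b*, *Bcr*, *Mcam*, *Igfbp4* and *Pdlim1* responded more in the upward direction in EC (5 genes, 0.0408%), by 2.08 to 3.04 on the log2 scale. *Capg*, *Procr* and *Lgals9* did so in PC (3 genes, 0.0245%), by 1.57 to 2.0. The effects of the 2 cell types themselves numbered 162 called genes in EC (1.32%, 106 upregulated and 56 downregulated) and 191 in PC (1.56%, 132 upregulated and 59 downregulated). An unadjusted p under 0.05 for the difference was reached by 909 genes (7.41%), and the 6 endothelial did not overlap the 6 pericyte differences for 122 genes (0.994%), all 8 called genes among them. The sign of the difference was the same in all 6 replicates for 754 genes (6.15%), again including the 8. A block for the replicate removes what the EC and PC differences of a pool share. With it, 4 of the 8 genes were called (*Map1b*, *Bcr*, *Mcam* and *Pdlim1*) and the others had limma adjusted p of 0.0523 (*Igfbp4*, *Capg* and *Lgals9*) and 0.0991 (*Procr*). Effects of a cell type given with the block come from a separate fit of its own 6 differences, which no block enters. No gene was called without replicate 5 or without replicate 6, when 738 and 682 genes had an unadjusted p under 0.05, or when the gene variances were moderated towards 1 common value in place of a trend on the level, with 879 genes.

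Across all genes, the effects in EC and PC correlated with Pearson's r of 0.413, a description over genes, which are not independent replicates and here came from the same mice. The median absolute difference was 0.47 on the log2 scale, below its median standard error of 0.597, and the 95% interval of a difference extended by a median of 1.28 to either side. Differences within this interval were not detectable at this depth and number of replicates for most genes.

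**Figure D2:**
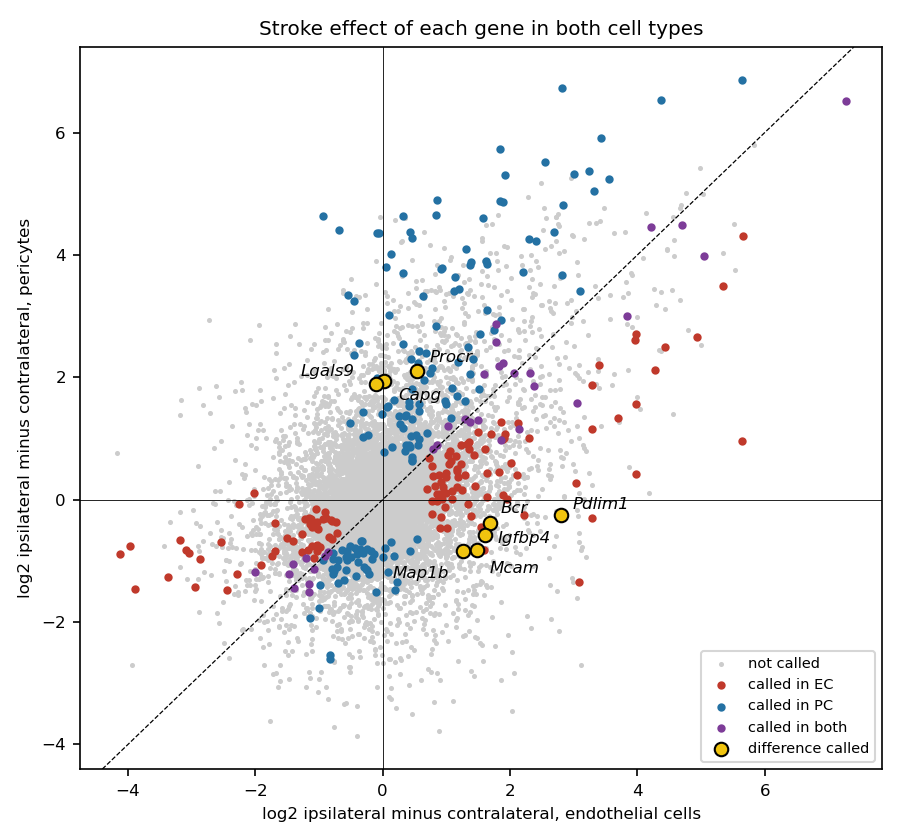
Log2 ipsilateral minus contralateral difference of each of the 12269 genes in endothelial cells (EC, horizontal) and pericytes (PC, vertical), coloured by the calls, with the dashed line where both effects are equal. The 8 yellow points are the genes called for the difference, of which 5 lie to the lower right with positive endothelial and negative pericyte values and 3 lie along the upper part of the vertical axis.

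The sequence upstream of 4 of the genes is shown so that short regulatory motifs can be seen in it. The genes were grouped by the direction of their called difference, and whether they share regulation was not tested. The letters are those of the RefSeq promoter table (build GRCm38.p6), on the strand of the gene, and cover the part of the 250 bases before the RefSeq start that lies outside the gene as deposited. Capitals mark the AP-1 motif TGANTCA, the core of the hypoxia response element ACGTG, the GC box GGGCGG bound by Sp and KLF factors, the STAT motif TTCNNNGAA and the interferon-stimulated response element (GAAA, any 2 bases, GAAA), on either strand. *Map1b* (chr13:99516603-99516852, minus strand) and *Pdlim1* (chr19:40271617-40271866, minus strand) are from the genes upregulated in EC, *Procr* (chr2:155750967-155751116, plus strand) and *Lgals9* (chr11:78984947-78985174, minus strand) from those upregulated in PC. All 4 hold a motif, whereas *Igfbp4* and *Capg*, which are not shown, hold none.
Map1b: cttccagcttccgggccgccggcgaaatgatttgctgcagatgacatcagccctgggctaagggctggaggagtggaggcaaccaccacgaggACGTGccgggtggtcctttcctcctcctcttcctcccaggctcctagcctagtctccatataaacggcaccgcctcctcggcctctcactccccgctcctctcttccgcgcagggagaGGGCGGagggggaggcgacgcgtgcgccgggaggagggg
Pdlim1: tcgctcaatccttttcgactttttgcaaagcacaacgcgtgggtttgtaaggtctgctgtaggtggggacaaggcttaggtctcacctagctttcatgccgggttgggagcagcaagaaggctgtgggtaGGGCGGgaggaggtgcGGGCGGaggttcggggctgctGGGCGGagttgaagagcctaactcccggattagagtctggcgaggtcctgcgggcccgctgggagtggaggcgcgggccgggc
Procr: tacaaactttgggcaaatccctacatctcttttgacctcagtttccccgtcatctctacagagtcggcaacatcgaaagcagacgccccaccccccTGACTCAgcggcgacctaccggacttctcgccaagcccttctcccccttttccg
Lgals9: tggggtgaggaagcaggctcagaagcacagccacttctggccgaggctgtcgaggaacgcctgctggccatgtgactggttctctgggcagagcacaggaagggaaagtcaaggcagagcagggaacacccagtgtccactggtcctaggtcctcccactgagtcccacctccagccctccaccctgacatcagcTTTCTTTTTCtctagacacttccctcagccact

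Over the whole 250 bases, the GC box was found upstream of 4 of the 8 genes, with 5 copies at *Mcam*, 4 at *Bcr*, 3 at *Pdlim1* and 1 at *Map1b*, and these were 4 of the 5 genes upregulated in EC. It was present in 57.7% of the 12040 promoter windows of tested genes, so that its presence at 4 of 8 is near that background. The AP-1 motif was found only at *Procr* (4.4% of windows), the interferon-stimulated response element only at *Lgals9* (2.5%) and the hypoxia element only at *Map1b* (21.3%). The STAT motif was found at none of the 8 (6.0%). *Igfbp4* and *Capg* held none of the 5 motifs in this window.

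*Map1b* (ENSMUSG00000052727, chromosome 13, 99421446 to 99516540, minus strand, GRCm38) encodes a microtubule-associated protein best known from growing axons. It was the only gene called in opposite directions in the 2 cell types. In EC it rose from 252 to 360 normalized counts (median 303.5) contralaterally to 489 to 869 (median 768.5) ipsilaterally, by 1.26 on the log2 scale (standard error (SE) 0.18, limma adjusted p = 0.00303). In PC it fell from 7103 to 11070 (median 9269.5) to 3400 to 8317 (median 4871), by 0.83 (SE 0.18, limma adjusted p = 0.034). The contralateral and ipsilateral ranges did not overlap in EC, and in PC each ipsilateral level was below the contralateral one of the same replicate. The difference between the effects was 2.10 (SE 0.25, 95% interval 1.56 to 2.63, limma adjusted p = 0.00775, 0.0179 with the replicate block). The 6 endothelial differences lay between 0.44, in replicate 3, and 1.59, above the pericyte differences of -1.44 to -0.30. When each effect was fitted on the differences of its own cell type alone, neither was called, whereas the difference was called with the block. The gene overlaps another annotated gene on the same strand, and reads overlapping several genes were not counted.

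*Bcr* (ENSMUSG00000009681, chromosome 10, 75060592 to 75184921, plus strand) encodes a signalling protein with kinase activity. In EC it rose from 316 to 643 normalized counts (median 498.5) to 1105 to 1795 (median 1674), with no overlap and by 1.69 on the log2 scale (SE 0.19, limma adjusted p = 0.000606). In PC it was at 3157 to 8934 (median 6152.5) contralaterally and 3177 to 7760 (median 4406) ipsilaterally, a log2 effect of -0.39 that was not called (limma adjusted p = 0.331). The difference was 2.08 (SE 0.27, limma adjusted p = 0.00837, 0.0323 with the block).

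*Mcam* (ENSMUSG00000032135, chromosome 9, 44134562 to 44142727, plus strand) encodes CD146, an adhesion molecule of the vessel wall and a co-receptor of VEGF and PDGF receptors. In EC its normalized counts were 659, 728, 1245, 1727, 468 and 656 in contralateral replicates 1 to 6 and 1191, 2070, 2596, 3328, 2206 and 3223 in the ipsilateral ones. In PC they were 25401, 20854, 22261, 23176, 17340 and 18635 contralaterally and 16841, 14992, 7957, 9452, 14048 and 10768 ipsilaterally. Every replicate was thus higher ipsilaterally in EC and lower in PC, where the 2 hemispheres did not overlap. The level rose by 1.48 on the log2 scale in EC (SE 0.22, limma adjusted p = 0.00424), the effect of -0.82 in PC was not called (SE 0.22, limma adjusted p = 0.0774), and the difference was 2.31 (SE 0.31, limma adjusted p = 0.0119, 0.0179 with the block).

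*Igfbp4* (ENSMUSG00000017493, chromosome 11, 99041244 to 99054392, plus strand) encodes a secreted binding protein of insulin-like growth factors. In EC it was at 3077 to 19448 normalized counts (median 5860.5) contralaterally and 13704 to 43646 (median 21229.5) ipsilaterally, and in PC at 5705 to 28514 (median 22847) and 4675 to 20686 (median 15685.5). The ranges of the hemispheres overlapped in both cell types, but within replicates the ipsilateral level was the higher in 6 of 6 for EC and the lower in 6 of 6 for PC. The effect was 1.61 in EC (SE 0.22, limma adjusted p = 0.00291) and -0.57 in PC, which was not called (limma adjusted p = 0.215). The difference of 2.18 (SE 0.31, limma adjusted p = 0.0179) was not called with the block. When hemispheres were treated as unpaired, so that the spread in level between replicates entered the error, it had a limma adjusted p of 0.572.

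*Pdlim1* (ENSMUSG00000055044, chromosome 19, 40221173 to 40271616, minus strand) encodes a PDZ and LIM domain protein that binds α-actinin on actin stress fibres. It had the largest difference of the 8 genes. Its level in EC was 55, 322, 335, 473, 51 and 106 in contralateral replicates 1 to 6 and 1073, 968, 1483, 1436, 602 and 1329 in the ipsilateral ones. In PC it was at 1735 to 3630 (median 2798.5) contralaterally and 1761 to 3265 (median 2183) ipsilaterally. All ipsilateral EC lay above all contralateral EC, whereas the hemispheres overlapped almost completely in PC. The log2 effect was 2.79 in EC (SE 0.33, limma adjusted p = 0.000851) and -0.25 in PC (SE 0.33, limma adjusted p = 0.78), a difference of 3.04 (SE 0.46, limma adjusted p = 0.0185, 0.023 with the block), or 8.22-fold.

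*Capg* (ENSMUSG00000056737, chromosome 6, 72544391 to 72562983, plus strand) encodes an actin filament capping protein of the gelsolin family. In PC its normalized counts were 446, 780, 557, 1081, 522 and 735 in contralateral replicates 1 to 6 and 1363, 2483, 4310, 3006, 2703 and 2219 in the ipsilateral ones, without overlap. In EC it was at 2739 to 7358 (median 4869.5) contralaterally and 3568 to 5753 (median 4985.5) ipsilaterally, where the ranges overlapped. The level rose by 1.94 on the log2 scale in PC (SE 0.21, limma adjusted p = 0.000916) and was at 0.02 in EC, and the difference was -1.92 (SE 0.29, limma adjusted p = 0.0185).

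*Procr* (ENSMUSG00000027611, chromosome 2, 155751117 to 155755471, plus strand) encodes the endothelial protein C receptor, which promotes activation of the anticoagulant protein C on the vessel surface. In PC it rose from 137 to 415 normalized counts (median 185) to 664 to 1653 (median 746), by 2.11 on the log2 scale (SE 0.17, limma adjusted p = 4.56e-05). In EC it was at 545 to 1159 (median 810.5) contralaterally and 667 to 1461 (median 1282) ipsilaterally, with an effect of 0.54 (SE 0.17) that was not called (limma adjusted p = 0.132), although 6 of 6 replicates were higher ipsilaterally. The hemispheres did not overlap in PC and overlapped in EC. The 6 pericyte differences, from 1.81 to 2.34, all exceeded the highest endothelial one of 0.78, and the difference was -1.57 (SE 0.24, limma adjusted p = 0.0185).

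*Lgals9* (ENSMUSG00000001123, chromosome 11, 78962974 to 78984946, minus strand) encodes galectin-9, a carbohydrate-binding immune regulator. In PC its normalized counts were 147, 320, 540, 209, 296 and 311 in contralateral replicates 1 to 6 and 681, 1130, 2459, 1563, 574 and 767 in the ipsilateral ones, again without overlap. In EC it was at 4810 to 6655 (median 5328.5) and 4255 to 6718 (median 4867.5), nearly the same range in both hemispheres. It rose by 1.89 in PC (SE 0.22, limma adjusted p = 0.00169), was at -0.11 in EC, and had a difference of -2.0 (SE 0.31, limma adjusted p = 0.0189).

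**Figure D3:**
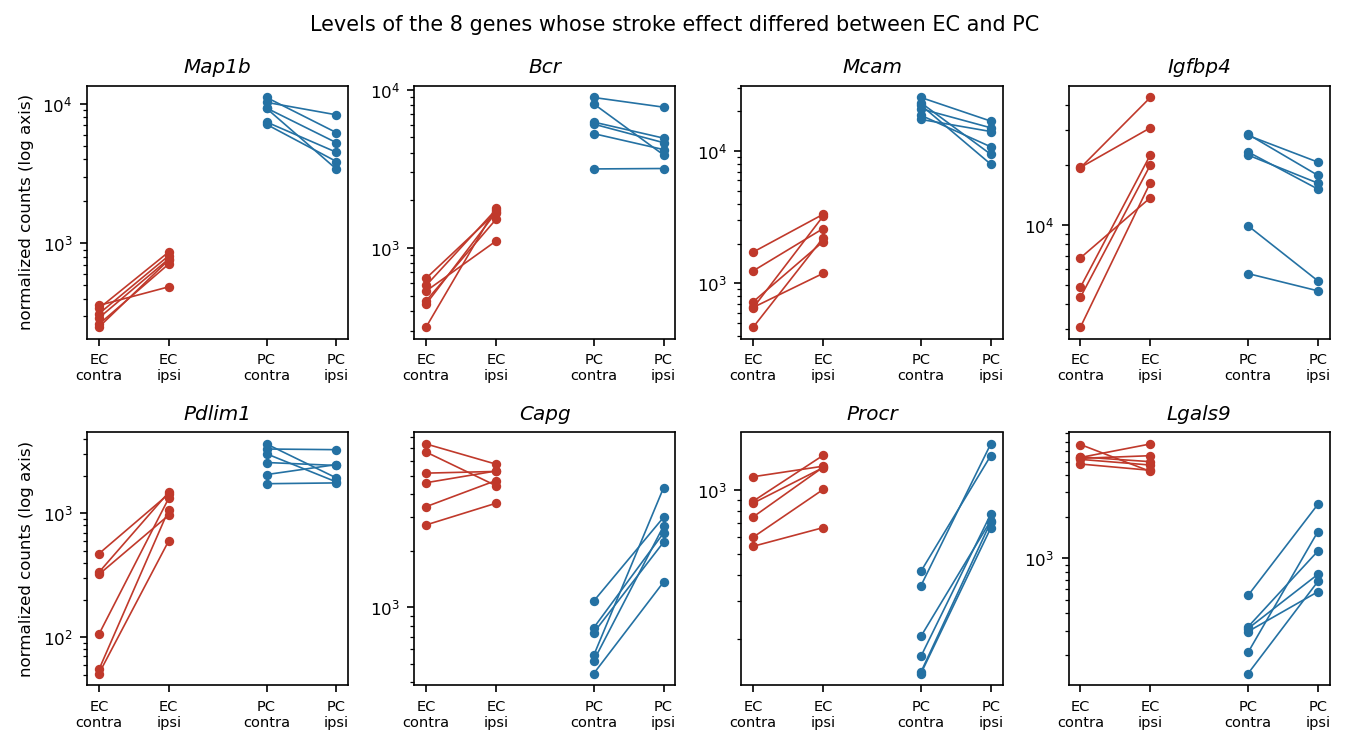
Normalized counts (log axes) of the 8 genes in contralateral (contra) and ipsilateral (ipsi) libraries of endothelial cells (EC, red) and pericytes (PC, blue), with a line for each of the 6 replicates. For the first 5 genes the red lines rise and most blue lines fall, and for *Capg*, *Procr* and *Lgals9* the blue lines rise more steeply than the red ones, and in each panel the cell type with the lower contralateral level shows the rise.

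Each of the 8 genes rose in the cell type in which its contralateral level was the lower. The difference was opposite in sign to the contralateral gap between the cell types for 8 of 8 genes. This held for 72.5% of all genes tested and 90.3% of those with an unadjusted p under 0.05. Contralateral levels enter both the gap and, with reversed sign, the difference. The level in EC minus that in PC, on the log2 scale, was -4.67 contralaterally and -2.37 ipsilaterally for *Mcam*, -4.88 and -2.79 for *Map1b*, -3.62 and -1.55 for *Bcr*, and -4.05 and -1.01 for *Pdlim1*. For *Igfbp4* the order of the cell types turned, from -1.19 to 0.99. In the opposite direction it was 4.27 and 2.27 for *Lgals9*, 2.84 and 0.92 for *Capg*, and 1.86 and 0.29 for *Procr*. The levels of the cell types thus lay closer in the ipsilateral hemisphere for 8 of 8 genes, against 62.6% of all genes tested and 78.1% of those with an unadjusted p under 0.05, and the same libraries enter the level and the difference.

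RNA of the partner cell type was followed by its markers. The summed level of pericyte markers in EC was lower ipsilaterally in 6 of 6 replicates, with a median log2 difference of -1.03. The 5 genes with the higher contralateral level in PC rose in EC, and the part of pericyte RNA in their endothelial levels and effects was not tested. Endothelial marker RNA in PC was at 5.77% to 9.06% of its level in EC contralaterally and at 4.71% to 11.8% ipsilaterally. Its sum was lower ipsilaterally in 5 of 6 replicates, with a median of -0.44, and higher in replicate 6, by 0.46. *Capg*, *Procr* and *Lgals9* were higher in 6 of 6. Over single endothelial markers the median effect in PC was 0.549, and 2 of 10, *Cdh5* and *Emcn*, rose in PC. This median was 0.08 in replicates 1 to 4 and 1.27 in replicates 5 and 6, the replicates with little microglial RNA. In replicates 5 and 6, 3 of the 10 markers were upregulated in PC, as were 300 of all 11556 genes tested with them. The log2 difference of the summed level was -0.062 in replicate 5 and 0.46 in replicate 6. The part of endothelial RNA in the pericyte levels and effects of *Capg*, *Procr* and *Lgals9* was not tested. *Cdh5*, the VE-cadherin gene by which PC were gated as negative, went from 17 to 95 normalized counts (median 56) to 88 to 450 (median 144.5), against 1565 to 3949 in EC. Its effect in PC was 1.64 (SE 0.26, limma adjusted p = 0.00954), and its difference of -1.45 was not called (limma adjusted p = 0.254). The effect of *Cdh5* in PC was 1.45 to 1.82 over the 21 alternatives, those with only some of the replicates included.

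Microglial marker RNA in ipsilateral PC was high in replicates 1 to 4. *Lgals9* was at 3940 to 8147 normalized counts in ipsilateral microglia and *Capg* at 2169 to 5747, and the microglial markers of ipsilateral PC reached 13.1%, 28.1% and 20.2% of their level in microglia in replicates 2, 3 and 4. In replicates 5 and 6, where these markers were at 0.234% and 0.207%, *Capg* went from 522 to 2703 and from 735 to 2219 in PC, *Procr* from 415 to 1456 and from 355 to 1653, and *Lgals9* from 296 to 574 and from 311 to 767. With only those replicates the differences were -1.56 for *Capg*, -1.49 for *Procr* and -1.25 for *Lgals9* (limma adjusted p = 0.119, 0.124 and 0.11). With only replicates 1 to 4 they were -2.10, -1.61 and -2.38. None of these genes was called in either set, and the part of microglial RNA in their differences was not tested. The 5 genes of the other direction had differences of 1.81 to 2.84 in replicates 1 to 4 and of 2.06 to 3.44 in replicates 5 and 6. Of them, only *Mcam* and *Pdlim1* were called, in replicates 5 and 6.

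Among the genes next in order of p, none of which was called for the difference, those with the more positive effect in EC are given first. *Tubb6*, a β-tubulin, rose in both cell types but more in EC in 6 of 6 replicates, from 725 to 1803 normalized counts (median 1292) to 7732 to 14773 (median 9720) in EC and from 860 to 2652 (median 1207.5) to 2661 to 4862 (median 4255) in PC. Its effects of 3.05 (SE 0.20) and 1.58 (SE 0.20) were called in both, also when each cell type was fitted alone. Its difference was 1.48 (SE 0.29, 95% interval 0.86 to 2.09, limma adjusted p = 0.109). The 6 endothelial differences of *Tubb6* all lay above the 6 pericyte ones. *Tuba1c*, an α-tubulin, rose in EC by 1.34, with -0.07 in PC, and *Tcp1*, a subunit of the chaperonin that folds tubulin and actin, by 0.98, with -0.13 in PC.

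*Mmp14*, which encodes the membrane-bound matrix metalloproteinase MT1-MMP, rose in EC from 81 to 232 normalized counts (median 95) to 320 to 1003 (median 404), without overlap and by 2.10 (SE 0.22, limma adjusted p = 0.000293). In PC the same gene was at 657 to 1948 (median 1268) and 900 to 1907 (median 1686.5), an effect of 0.41. *Pgf*, placental growth factor, a ligand of VEGF receptor 1, went from 43 to 321 (median 162.5) to 315 to 1850 (median 762) in EC and was at 2882 to 5005 over both hemispheres in PC. Its endothelial effect of 2.22 was called (SE 0.33, limma adjusted p = 0.00424), its pericyte effect was -0.24, and its difference of 2.46 was not called (limma adjusted p = 0.1). *Vim*, the intermediate filament vimentin, fell in PC by 0.84 (limma adjusted p = 0.0293) and was at 0.44 in EC. *Entpd1*, the ecto-nucleotidase CD39, which degrades extracellular ATP and limits platelet activation, fell in PC by 0.65 (limma adjusted p = 0.0479) and was at 0.53 in EC, with a difference that was not called (95% interval 0.73 to 1.63, limma adjusted p = 0.0784). *Ckb*, *Gmpr* and *Fbxo30* were the others of this order, with differences of 1.33, 1.90 and 1.57 and neither effect called.

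In the direction of PC, the order of p after the called genes began with *Gulp1* and *Trib3*. *Gulp1*, an adaptor for the uptake of apoptotic cells, fell in EC from 477 to 840 normalized counts (median 760) to 46 to 306 (median 193.5), by 2.02 (SE 0.28, limma adjusted p = 0.00296), and was at 119 to 266 and 125 to 265 in PC. Its difference was -2.12 (SE 0.40, limma adjusted p = 0.0945). *Nov*, a matricellular CCN protein, likewise fell in EC, by 2.25 (limma adjusted p = 0.00308), and was at -0.06 in PC. Its difference was -2.94 in replicates 1 to 4 and -0.67 in replicates 5 and 6. *Trib3*, a pseudokinase induced by the unfolded protein response, was at 0 to 46 (median 4) in contralateral and 57 to 300 (median 159) in ipsilateral PC, without overlap, and at 246 to 849 and 106 to 302 in EC. Its pericyte effect was called (limma adjusted p = 0.0142) and its difference of -5.59 (SE 1.15, limma adjusted p = 0.133) was set against contralateral PC near the floor, and it was -7.85 in replicates 1 to 4 and -1.06 in replicates 5 and 6. *S100a10*, the annexin A2 partner that binds plasminogen, rose in PC by 1.44 and was at -0.31 in EC. *Cavin2* and *Rgcc* had effects in opposite directions of which neither was called, with -1.14 in EC and 0.68 in PC for *Cavin2* and -1.10 and 0.63 for *Rgcc*. *Rdh10*, *Cttnbp2nl*, *Tmcc3* and *Mcub* had differences of -2.81, -1.47, -1.78 and -1.64. *C1qtnf7*, a secreted C1q and TNF related protein, was at 4 to 151 in contralateral EC and 0 to 2, under the floor, in ipsilateral EC, where it fell (limma adjusted p = 0.0012), against 1097 to 3098 over both hemispheres of PC.

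**Figure D4:**
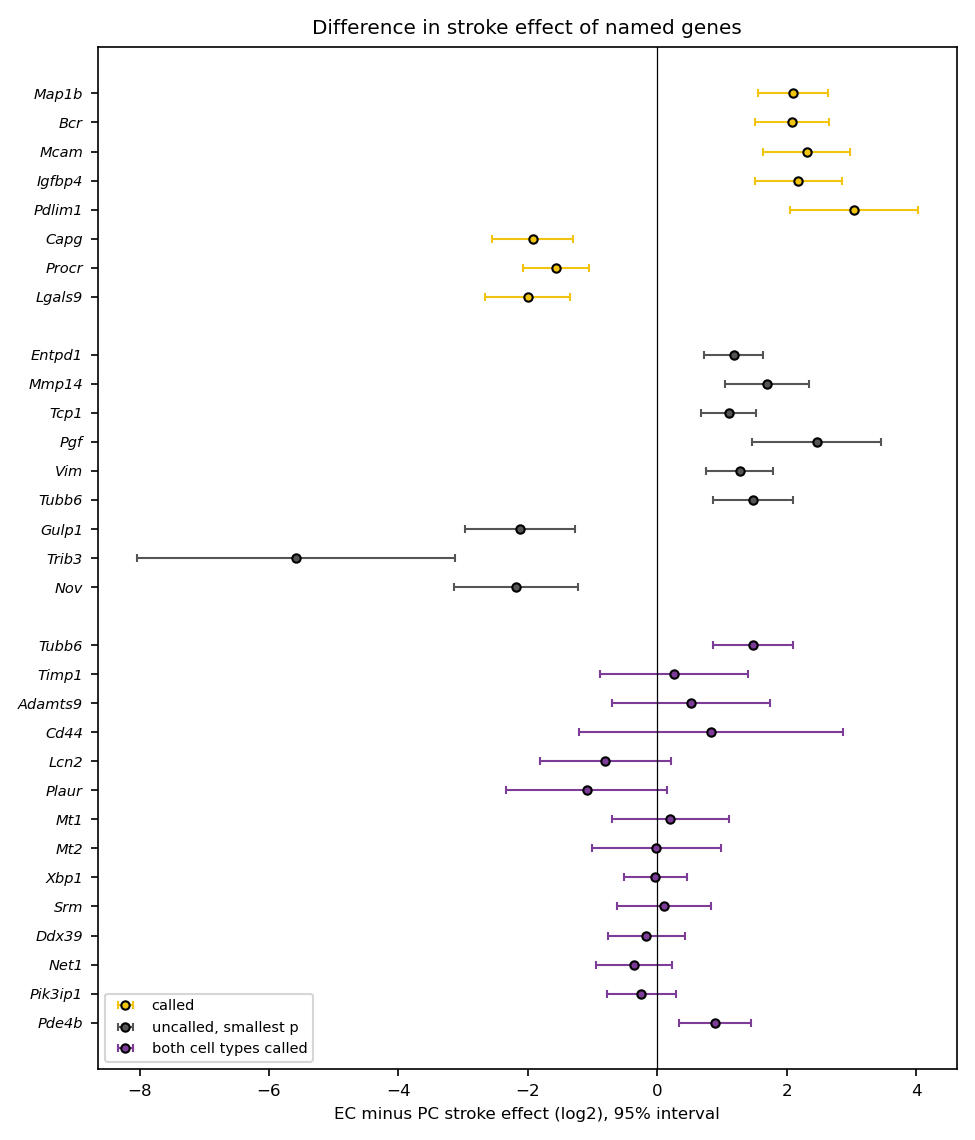
Difference in stroke effect, endothelial cells (EC) minus pericytes (PC), on the log2 scale with its 95% interval, for the 8 called genes (yellow), 9 of the uncalled genes of smallest p (grey) and 14 genes called in both cell types in the same direction (purple). Intervals of the called genes lie wholly on 1 side of 0, whereas those of the shared genes include 0 except for *Tubb6*, which is drawn in both lower sets, and *Pde4b*.

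A call in a single cell type rarely went with a called difference. Of the 162 genes called in EC, 129 were not called in PC, and of these 4 were called for the difference and 70 had an unadjusted p under 0.05. Of the 191 genes called in PC, 158 were not called in EC, and of these 3 were called for the difference and 88 had an unadjusted p under 0.05. The median absolute difference was 0.889 for the 129 genes and 1.17 for the 158, against 0.47 for all genes. These genes were selected on the effects that enter the difference, so the values are a description. When each effect was fitted on the differences of its own cell type alone, 24 genes were called in EC and 83 in PC. This is the setting given as the block for effects, and no replicate term enters it. Of these genes, 21 and 60 were among the calls of the main fit. Of the effects of named genes that were called, 12 of 47 in EC and 26 of 51 in PC held in this setting. In EC these were *Tubb6*, *Adamts4*, *Mmp14*, *Bcr*, *Pdlim1*, *Nov*, *C1qtnf7*, *Gapdh*, *Angpt2*, *Lcn2*, *Timp1* and *Pde4b*, and in PC they included *Procr*, *Capg*, *Lgals9*, *Slc16a3*, *Tnc*, *Il11*, *Cxcl2*, *Cdh5* and *Psmb8*.

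Both cell types shared 33 called genes, 20.4% of the endothelial and 17.3% of the pericyte calls, with 22 upregulated in both, 10 downregulated in both and *Map1b* in opposite directions. *Timp1*, the tissue inhibitor of metalloproteinases 1, rose by 2.32 in EC (SE 0.38) and 2.07 in PC (SE 0.38), with a difference of 0.26 and a 95% interval of -0.89 to 1.40. *Mt2*, a metallothionein that binds zinc and copper, rose by 2.06 (SE 0.33) and 2.08 (SE 0.33), with an interval of the difference of -1.01 to 0.98. Narrower intervals were found for *Xbp1*, a transcription factor of the unfolded protein response, with effects of 0.80 and 0.83 and an interval of -0.52 to 0.45, and for *Srm*, spermidine synthase, with 1.37 and 1.27 and an interval of -0.62 to 0.82. *Ddx39*, an RNA helicase, rose by 1.03 and 1.20. *Net1* and *Pik3ip1*, an inhibitor of PI3 kinase, fell by 1.41 and 1.20 in EC and by 1.05 and 0.95 in PC. *Lcn2*, the iron-carrier binding protein lipocalin 2, rose by 1.78 in EC and 2.58 in PC although its ipsilateral level was 5221 to 48396 in EC and 462 to 3526 in PC. *Cd44*, a receptor of hyaluronan and osteopontin, rose by 3.84 and 3.01, *Adamts9* by 2.38 and 1.85, and *Pde4b*, a cAMP phosphodiesterase, by 1.86 and 0.97.

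Gene lists were described by the number of members called and by their median difference, set beside the median of -0.008 over all genes. No list was tested as a set, and the lists were chosen with earlier results of these data known. Calls for the difference among the 26 pathway lists and 3 family lists were *Mcam* (VEGF, angiopoietin and tip-cell genes) and *Procr* (coagulation and fibrinolysis), and no other list held one.

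**Figure D5:**
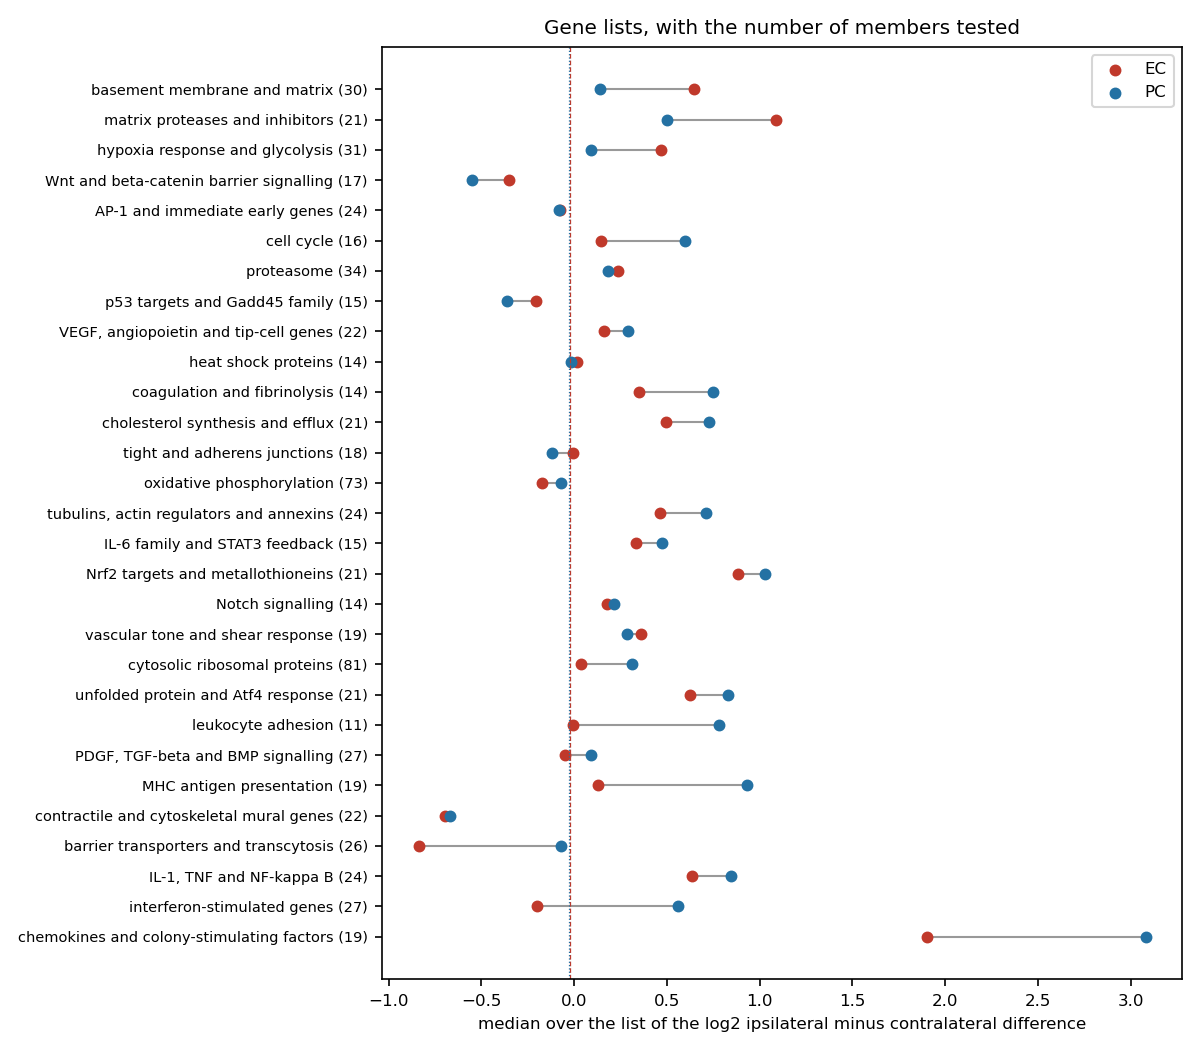
Median log2 ipsilateral minus contralateral difference of each gene list in endothelial cells (EC, red) and pericytes (PC, blue), ordered by the median difference between them, with the number of members tested in brackets and the medians of all genes as broken vertical lines near 0. Chemokines lie furthest to the right in both cell types, and the basement membrane, matrix protease and hypoxia lists have the endothelial median above the pericyte one.

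Matrix proteases and their inhibitors leaned towards EC, with a median difference of 0.44 over 21 members, 16 of them above 0. In EC 5 members rose and in PC 4. As background, 0.864% of all genes were upregulated and 0.456% downregulated in EC, and 1.08% and 0.481% in PC. *Adamts4*, which cleaves proteoglycans of the brain matrix, rose in EC from 50 to 569 normalized counts (median 274.5) to 510 to 7839 (median 3380.5), by 3.69 (SE 0.36, limma adjusted p = 0.000248), and was higher ipsilaterally in PC by 1.34, which was not called (limma adjusted p = 0.0813). Its difference of 2.36 (SE 0.51) was not called (limma adjusted p = 0.158), although the 6 endothelial lay above the 6 pericyte differences. *Mmp12*, macrophage elastase, was listed at 0 in all contralateral EC and at 0 to 3 in contralateral PC, against 0 to 983 and 0 to 1706 ipsilaterally, and was called in PC (limma adjusted p = 0.0346) but not in EC. The list kept a positive median difference of 0.86 in replicates 5 and 6 and of 0.12 in replicates 1 to 4. With the replicate block 4 members were called in EC and 0 in PC.

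Basement membrane and matrix genes had a median difference of 0.45, with 20 of 30 above 0, and 3 upregulated and 1 downregulated in each cell type. *Nid1*, nidogen, which links laminin and type IV collagen in the basement membrane, rose in EC by 1.45 (SE 0.24, limma adjusted p = 0.00851) and was at 0.23 in PC. *Spp1*, osteopontin, rose in EC by 3.96 (SE 0.64, limma adjusted p = 0.00782), and its effect of 2.61 in PC missed the threshold (limma adjusted p = 0.0559). Its ipsilateral levels spread from 276 to 85525 normalized counts in EC and from 6133 to 112736 in PC, and the 95% interval of its difference was -0.59 to 3.29. The endothelial effect was 5.06 in replicates 1 to 4 and 1.77 in replicates 5 and 6. Ipsilateral microglia held 87954 to 707269, and the part of microglial RNA in this effect was not tested. *Tnc*, tenascin C, went the other way. It was listed at 0 in all 6 contralateral EC and rose in PC (limma adjusted p = 0.00702). In replicates 5 and 6, 9 members of the list were upregulated in EC and 1 in PC. Of all 11556 genes tested with these replicates alone, 261 were upregulated in EC and 300 in PC. With the block 0 members of the list were called in EC, and 1 rose and 1 fell in PC.

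Hypoxia response and glycolysis genes had a median difference of 0.294, with 19 of 31 members above 0 and 9 with an unadjusted p under 0.05. The glycolytic enzyme genes *Gapdh*, *Pgk1*, *Eno1* and *Pkm* rose in EC, by 1.29, 0.99, 0.83 and 1.08, and were at 0.40, 0.43, 0.22 and 0.63 in PC without a call. *Gapdh* went from 3132 to 6237 normalized counts (median 4468) to 8605 to 12946 (median 11009) in EC, and was at 7355 to 10481 (median 8165) and 8647 to 14674 (median 11052.5) in PC. Its level in EC was below that in PC contralaterally and the ranges overlapped ipsilaterally. *Slc16a3*, the lactate exporter MCT4, rose in PC by 2.93 (SE 0.49, limma adjusted p = 0.0106) and had 1.86 in EC, with a 95% interval of the difference of -2.56 to 0.42. *Hk2*, hexokinase 2, which commits glucose to glycolysis, had a difference of -2.50 that was not called (limma adjusted p = 0.647). *Egln3*, a HIF prolyl hydroxylase, was at 0 to 2 in contralateral and 0 to 71 in ipsilateral EC and at 37 to 367 over both hemispheres of PC. With the block, 1 member was called in EC (*Gapdh*) and 2 in PC.

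Among VEGF, angiopoietin and tip-cell genes 4 of 22 rose in EC, namely *Mcam*, *Pgf*, *Angpt2* and *Plaur*, and 1 in PC, *Plaur*, with a median difference of 0.02, which was 0.06 in replicates 1 to 4 and -0.54 in replicates 5 and 6. *Angpt2*, which antagonises angiopoietin 1 at the Tie2 receptor and loosens the contact between EC and PC, rose in EC from 418 to 1809 normalized counts (median 918.5) to 2877 to 7015 (median 3976), by 2.30 (SE 0.27, limma adjusted p = 0.000851). In PC the gene was at 2117 to 2914 (median 2419) and 3349 to 7315 (median 4998), also without overlap, with an effect of 1.01 (SE 0.27) that was not called (limma adjusted p = 0.0735). The difference of 1.29 was above 0 in 6 of 6 replicates and was not called (limma adjusted p = 0.384). *Plaur*, the urokinase receptor, rose by 1.79 in EC and 2.88 in PC. With the block 2 members were called in EC and 1 in PC.

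Coagulation and fibrinolysis genes split, with 2 of 14 upregulated in EC and 3 upregulated and 2 downregulated in PC. Besides *Procr*, *S100a10*, *Entpd1* and *Plaur*, *Thbs1*, thrombospondin 1, an inhibitor of angiogenesis and activator of TGF-β, rose in EC by 3.29 (SE 0.49, limma adjusted p = 0.00399), from 15 to 235 normalized counts to 172 to 3760. In PC it was at 2709 to 8262 and 7085 to 14098, an effect of 1.15 (limma adjusted p = 0.255). With the block 0 members were called in EC, and 5 rose and 1 fell in PC.

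Barrier transporters and transcytosis genes had a median effect of -0.837 in EC and -0.0696 in PC and a median difference of -0.645, with 16 of 26 below 0. None was called in EC, 1 fell in PC, and 9 had an unadjusted p under 0.05 for the difference. The lowest difference was that of *Abcc4*, an efflux pump, at 2819 to 7045 normalized counts in contralateral and 1358 to 4809 in ipsilateral EC, with a difference of -1.96 (limma adjusted p = 0.57), which was -2.83 in replicates 1 to 4 and -0.20 in replicates 5 and 6. The median difference of the list was -0.59 in replicates 1 to 4 and -0.49 in replicates 5 and 6. Tight and adherens junction genes had a median difference of -0.12, and *Cdh5* in PC was the 1 called effect among 18 members.

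Contractile and cytoskeletal mural genes had median effects of -0.698 in EC and -0.668 in PC and a median difference of -0.562, which was -0.46 in replicates 1 to 4 and -0.10 in replicates 5 and 6. In EC 5 of 22 fell, *Acta2*, *Myh11*, *Myl9*, *Tpm2* and *Rgs5*, by 1.40 to 2.86. These are genes of smooth muscle cells and PC, and in EC they were at low levels, with *Tpm2*, a tropomyosin, at 74 to 1015 normalized counts in contralateral EC against 35198 to 71907 in contralateral PC. The summed pericyte marker RNA in EC was also lower in these libraries, and its part in the result was not tested. In PC 4 fell, *Myl9*, *Tpm1*, *Cnn2* and *Vim*, and 2 rose, *Tpm4* and *Ednrb*. The summed level of smooth muscle markers in PC was lower ipsilaterally in 6 of 6 replicates, with a median log2 difference of -0.959, at 319214 to 497819 contralaterally and 149050 to 339777 ipsilaterally. Its part in the falls in PC was not tested, and the list itself holds smooth muscle genes. *Ednrb*, the endothelin B receptor, was at 0 to 409 (median 235.5) in contralateral and 1187 to 11127 (median 1481) in ipsilateral PC, with its highest levels of 7634 and 11127 in replicates 5 and 6. In EC it was at 105 to 287 and 121 to 476, and its difference of -4.04 (SE 1.07) was not called (limma adjusted p = 0.307), with replicate 1 at 0 in contralateral PC. With the block 0 of these genes were called in EC and 1 rose and 5 fell in PC. *Ptgis*, prostacyclin synthase, a producer of a vasodilator, fell in PC by 1.34 (SE 0.27, limma adjusted p = 0.027) and was at 0.22 in EC.

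Chemokines and colony-stimulating factors had the most negative median difference of all pathway lists, -1.68 over 19 members, with 15 below 0. In PC 7 rose, *Ccl5*, *Ccl6*, *Ccl7*, *Ccl11*, *Cxcl2*, *Cxcl3* and *Cxcl10*, and in EC 1, *Csf3*, the granulocyte colony-stimulating factor. *Cxcl2*, a neutrophil attractant, had normalized counts of 0, 36, 7, 7, 1 and 0 in contralateral PC of replicates 1 to 6 and of 155, 482, 1211, 1146, 12 and 12 in the ipsilateral ones. In EC they were 224, 449, 82, 197, 7 and 24 and 738, 578, 1160, 673, 28 and 103. The 4 replicates with more microglial marker RNA were also those with more *Cxcl2* in each group except contralateral PC, where all were at or near the floor apart from replicate 2. The median difference of the list was -2.02 with only replicates 1 to 4 and 0.55 with only replicates 5 and 6, and the part of microglial RNA in it was not tested. *Cxcl10* and *Ccl7* turned in sign with replicates 5 and 6 only, from -2.79 to 0.55 and from -2.21 to 0.09. With the block 2 chemokines were called in PC and 0 in EC.

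Interferon-stimulated genes leaned towards PC, with 25 of 27 differences below 0 and a median of -0.745, and median effects of -0.198 in EC and 0.562 in PC. In PC 3 rose, *Oasl1*, *Oas1a* and *Cxcl10*, and in EC 0. *Oas1a*, an enzyme that senses double-stranded RNA, was at 0 to 15 normalized counts in contralateral and 10 to 228 in ipsilateral PC, against 242 to 479 over both hemispheres of EC, and had a difference of -4.41 (limma adjusted p = 0.359), with contralateral PC near the floor. In replicates 5 and 6 alone the difference was -1.17. The median difference was -0.81 in replicates 1 to 4 and -0.67 in replicates 5 and 6. With the block 0 members were called in either cell type. MHC antigen presentation genes had a median difference of -0.476. Their 1 called gene was *Psmb8*, an immunoproteasome subunit, which rose in PC by 1.52 (SE 0.30, limma adjusted p = 0.0237) and was at 0.07 in EC. The median difference of this list was -0.88 in replicates 1 to 4 and 0.02 in replicates 5 and 6. The leukocyte adhesion list had 11 of 11 differences below 0, with a median of -0.35 and no called member, and its median was -0.83 in replicates 1 to 4 and 0.05 in replicates 5 and 6. The MHC and leukocyte adhesion lists lay lower in EC in the replicates with more microglial RNA in ipsilateral PC. The interferon-stimulated list lay lower in EC in both sets of replicates. The part of microglial RNA in these results was not tested.

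Among genes of the IL-1, TNF and NF-κB list, *Tnfrsf1b*, TNF receptor 2, rose in PC and was at 0.43 in EC. Its levels in PC were 0 to 241 normalized counts (median 30) and 18 to 2099 (median 713.5). Its difference of -3.94 was not called (limma adjusted p = 0.48) and was -5.35 in replicates 1 to 4 and -1.13 in replicates 5 and 6. *Il11* and *Bcl3*, which encode a cytokine of the IL-6 family and a nuclear IκB protein, rose in PC (limma adjusted p = 0.00702 and 0.00437). *Bcl3* had effects of 2.07 in PC and 0.74 in EC. *Il6* had effects of 3.33 in EC and 3.5 in PC, of which neither was called (limma adjusted p = 0.0646 and 0.0515), from 1 to 32 to 15 to 212 normalized counts in EC and from 108 to 450 to 1235 to 5110 in PC. The IL-1, TNF and NF-κB list had a median difference of -0.672, of -0.96 in replicates 1 to 4 and of 0.14 in replicates 5 and 6. The AP-1 and immediate early genes had a median difference of 0.11. Of these, the transcription factor genes *Fosl1* and *Myc* rose in EC, by 2.01 and 1.82, with 0.59 and 0.46 in PC, and *Atf3* fell in PC by 0.94 and was at 0.00 in EC, and none was called with the block in EC.

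Among stress responses, Nrf2 targets and metallothioneins had median effects of 0.882 in EC and 1.03 in PC, with 5 and 4 of 21 upregulated. *Nqo1*, a quinone reductase, rose in EC by 1.90 (SE 0.39, limma adjusted p = 0.0262) and was at 0.08 in PC, and *Slc7a11*, the cystine transporter that supplies glutathione synthesis, rose in EC by 5.34 with 3.49 in PC. *Hmox1*, heme oxygenase 1, had effects of 3.11 in EC and 3.42 in PC, of which the second was called (limma adjusted p = 0.0714 and 0.0485), and the 95% interval of its difference was -2.73 to 2.11. The unfolded protein and Atf4 response had medians of 0.626 and 0.83, with 2 and 5 of 21 upregulated, and the tubulin, actin regulator and annexin list 0.462 and 0.709, with 3 and 5 of 24. *Lgals3*, galectin-3, rose in EC by 3.29 and had 1.87 in PC. The endothelial effect was 4.06 in replicates 1 to 4 and 1.73 in replicates 5 and 6, and ipsilateral microglia held 3309 to 26005 normalized counts of it. Cytosolic ribosomal protein genes lay below 0 in 71 of 81 differences, with a small median of -0.311. In replicates 1 to 4 it was -0.19 and in replicates 5 and 6 -0.45. These genes, like *Gapdh* and *Eno1*, have near-identical processed copies in the genome, and reads aligned to several regions were not counted, so their levels are uncertain.

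Of the remaining lists, vascular tone and shear response had a median difference of -0.292, with 2 members upregulated and 1 downregulated in PC. PDGF, TGF-β and BMP signalling had -0.409, with 20 of 27 below 0 and 1 gene downregulated in EC. The IL-6 family and STAT3 feedback list had -0.166, with *Il11* and *Bcl3* as its calls. Oxidative phosphorylation had -0.133 over 73 members and no call, the proteasome 0.0551 with 1 gene upregulated in EC, cholesterol synthesis and efflux -0.109 with 1 upregulated in EC, and p53 targets 0.0509 with 1 downregulated in EC and 1 upregulated in PC. Notch signalling (-0.204), the Wnt and β-catenin list (0.208), heat shock proteins (0.0169) and the cell cycle (0.0961) held no gene called in either cell type.

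The marker lists of other cell types were described in the same way. Microglia markers had 10 of 10 differences below 0 and a median of -1.10, with none called. Neutrophil markers had median effects of 3.25 in EC and 3.75 in PC, with 1 upregulated in PC, and monocyte and macrophage markers 2.07 and 3.25, also with 1. In replicates 1 to 4 the median difference was -2.18 for microglia, -2.02 for neutrophil and -1.53 for monocyte and macrophage markers, and in replicates 5 and 6 it was -0.17, 0.92 and 1.54, with the direction of the last pair turned. The median effect of monocyte and macrophage markers in PC was 4.58 in replicates 1 to 4 and -0.38 in replicates 5 and 6. Smooth muscle markers had a median difference of -0.886 with 2 downregulated in EC, pericyte markers -0.713 with 1 downregulated in EC, and endothelial markers -0.717. Astrocyte (0.284), neuron (0.0446), fibroblast (0.133), oligodendrocyte lineage (0.892) and red cell markers (-0.988) held no called gene. The summed level of astrocyte markers was higher ipsilaterally in EC in 6 of 6 replicates, with a median log2 difference of 1.197, and lower in PC in 6 of 6, with a median of -0.391. This is the direction of the 5 genes higher in EC, and the part of astrocyte RNA in their differences was not tested. In ipsilateral astrocytes themselves, *Bcr* was at 180 to 383, *Pdlim1* at 154 to 451 and *Igfbp4* at 165 to 553 normalized counts, below the lowest ipsilateral EC of 1105, 602 and 13704. *Map1b* was at 224 to 1771 (median 1053) in ipsilateral astrocytes, against 489 to 869 (median 768.5) in ipsilateral EC. For *Mcam* the ranges were 280 to 1233 and 1191 to 3328.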

How the data were processed

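RNA of each sorted pool (250 pg) was converted to libraries with a kit that does not mark strand and sequenced with 75-base reads. Per the labels and the study's methods, the authors trimmed the reads with Trimmomatic 0.38, aligned them to mouse GRCm38 with STAR 2.6.1d, counted them per gene with featureCounts 1.6.3, leaving out reads that overlapped several genes or aligned at several places, and normalized the counts with DESeq2 1.18.1. The deposited values are the result, rounded by the authors to integers, and were treated as a score and not as raw counts, so no count test was run. Antisense and overlapping genes cannot be told apart.

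Values were transformed to log2(value + 1). Fold changes are on that scale and understate changes of low genes. The 12 differences were fitted with limma 3.58.1 in R 4.3.3 (eBayes with a trend on the mean level), two-sided, with Benjamini-Hochberg adjustment over 12269 genes. The difference and both effects came from 1 fit, and a gene was called, or described as having risen or fallen, at an adjusted p of at most 0.05 and at least 1.5-fold. Python 3.11.15 with pandas 2.3.3 was used for tables. The procedure was tested on simulated data. Both cell types of a replicate came from the same pools, so the replicate numbers pair them. The differences of EC and PC with the same number correlated with a mean r of 0.101 (-0.018 to 0.175, above 0.1 for 3 of 6), against -0.019 for other numbers. Alternatives covered the pseudocount, the limit on low values, the replicate block, scaling, the variance model and the replicates used.

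Named genes were, in each direction, the 15 of smallest p with at least 5 of 6 replicates in the direction of the mean, genes called in both cell types, called or extreme members of the lists, genes named in earlier text on the series, and markers. Of these the text gives a part, and some are not reported here. The comparison, lists and named genes were chosen with earlier results of these data known. P-values describe the spread between pools of mice.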

Additional observations from a re-analysis of the deposited data

Results flagged for a closer look

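The 8 genes called for the difference were flagged because the test compared the effects of the 2 cell types directly: *Map1b* (2.10), *Bcr* (2.08), *Mcam* (2.31), *Igfbp4* (2.18), *Pdlim1* (3.04), *Capg* (-1.92), *Procr* (-1.57) and *Lgals9* (-2.0), in EC minus PC on the log2 scale.

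In 12 of 184 groups of 6 differences of named genes, 1 replicate lay far from the other 5, with a gap above 0.625 of the range. Chance alone flags about 1 in 20 groups. Of the called genes, *Map1b* in EC of replicate 3 was at 0.44 against 1.34 to 1.59, and *Bcr* in PC of replicate 4 at -1.07 against -0.39 to 0.01. Replicate 4 of PC stood apart for 4 further genes, with 6.76 against 1.68 to 2.90 for *Cd44*, 5.67 against 1.82 to 2.98 for *Plaur*, 0.66 against -1.50 to -0.82 for *Gmpr* and 0.22 against 0.89 to 1.22 for *Pde4b*. In the same replicate the microglial marker RNA of PC differed most between hemispheres, by 5.386 on the log2 scale, and its part in these values was not tested. In EC, the values were -3.35 for *Gulp1* (replicate 2), 1.62 for *Pgk1* (replicate 1), 3.95 for *Angpt2* (replicate 5), 8.13 for *Csf3* (replicate 2) and 0.31 for *Mt2* (replicate 2). *Emcn* in PC of replicate 1 was at 6.99, where its contralateral level was 0.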

How the results depend on the processing

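The number of genes called for the difference, 8 (5 higher in EC, 3 in PC), was 8 or 9 with another pseudocount, limit on low values, scaling or centring, without the minimum size and with robust moderation. With the replicate block it was 4 (4 and 0), and with each cell type fitted alone 24 genes were called in EC and 83 in PC. With hemispheres unpaired it was 3 (3 and 0), with 92 called in PC, and in a joint fit of all 4 cell types 21 (17 and 4), with 555 and 666. Only 4 of the 8 genes were among those 21, and in that fit *Procr* had a limma adjusted p of 0.436, *Capg* of 0.1, *Pdlim1* of 0.0659 and *Igfbp4* of 0.0534. Replicates 1 to 4 alone gave 0, with 26 and 54, and replicates 5 and 6 alone 3 (2 and 1), with 389 and 425. Without a variance trend, an alternative chosen after seeing the data, it was 0, with 78 and 54. Leaving out 1 replicate gave 0 to 13 (0 to 9 higher in EC, 0 to 4 in PC), 41 to 310 genes in EC and 18 to 374 in PC. The count without replicate 1 was 3, without replicate 2 13, without replicate 3 3, and without replicate 5 or 6 0. The calls in EC fell to 57, 41 and 42 without replicates 3, 5 and 6, and those in PC to 125, 18, 19, 74 and 27 without replicates 1, 3, 4, 5 and 6, and both were highest without replicate 2. Of genes called in a single cell type, 7 were called for the difference. This number was 2 with the block, unpaired, and in replicates 5 and 6, 18 in the joint fit, 0 in replicates 1 to 4 and without a trend, and 0 to 11 without 1 replicate. The cause of these changes was not tested. The difference turned in sign for *Myh11* (0.00), *Cxcl10* (0.55) and *Ccl7* (0.09) in replicates 5 and 6 and for *Slc7a11* (-0.07) in replicates 1 to 4. Of the values of single genes under alternatives, 605 lost a call and 35 gained one. All 8 called genes kept their sign under the 21 alternatives, but not their call. *Map1b*, *Bcr* and *Mcam* were each called in 16 of the 21, *Pdlim1* in 13 and *Igfbp4* in 11. *Capg*, *Procr* and *Lgals9* were each called in 10. Depth limits genes near 4 normalized counts, where fitted values depend on the pseudocount.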

Other observations

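The 8 genes were also measured in astrocytes and microglia of the same pools. *Capg* was higher in the ipsilateral hemisphere in 6 of 6 replicates of microglia, by 1.39 to 2.99 on the log2 scale, from 649 to 979 normalized counts to 2169 to 5747, whereas in astrocytes it was higher in 4 of 6. *Procr* was higher in 6 of 6 replicates of both, from 0 to 53 to 41 to 130 in astrocytes and from 39 to 83 to 96 to 312 in microglia. *Pdlim1* was higher in 6 of 6 in microglia, at 0 to 22 contralaterally and 14 to 86 ipsilaterally, and in 3 of 6 in astrocytes. *Lgals9* was higher in 1 of 6 in microglia, where it lay between 3940 and 8147 over both hemispheres. *Map1b* and *Bcr* were higher in 2 and 3 of 6 replicates of microglia, *Igfbp4* in 3 and *Mcam* in 5. These values were not tested.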
